A study of Monodelphis domestica with 6 samples.

Results

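The genes that encode the proteins of the cytosolic and of the mitochondrial ribosome were compared between neonatal skin fibroblasts (neoSFs) of a laboratory marsupial, the opossum Monodelphis domestica, and the induced pluripotent stem cells made from them (monoiPSCs). Members were all genes whose symbol has the form of a ribosomal protein name: RPL or RPS with a number and its lettered or paralog forms, RPLP0 to RPLP2, RPSA, and MRPL or MRPS with a number. The rule found 143 of the 35665 genes, of which 73 are cytosolic (45 of the large and 28 of the small subunit) and 70 mitochondrial (44 and 26). Compartment and subunit were assigned from the symbol alone, not from the place of each protein in the ribosome. RPLP1, RPLP2, RPL10L and RPL39L were not analysed here.

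The neoSFs were primary, unmodified cultures at early passage from neonatal pups of 2 inbred strains, FD2M1 and LSD1, with 1 library per strain. The monoiPSCs came from neoSFs of both strains after nucleofection with OriP/EBNA episomal plasmids for human OCT4, SOX2, NANOG, KLF4, LIN28 and cMYC, and 1 line per strain was sequenced at passage 15 (P15) and passage 25 (P25). All cells were labelled wild type, and the 4 monoiPSC libraries therefore held 2 lines, each at 2 passages, so that p-values measure the spread between these libraries and not between independent reprogramming events. The neoSF libraries were read in-house with short single-end reads and the monoiPSC libraries by a sequencing service with longer paired-end reads. Sequencing platform, plasmids, medium and cell type therefore cannot be told apart. Total counts were 14278794 and 16982978 in the neoSFs and 28684754 to 35564261 in the monoiPSCs, and every difference between the cell types below has only 2 neoSF libraries on 1 side. Markers of the labelled cell types followed the labels. All 8 fibroblast markers tested were lower in monoiPSCs (summed normalized read count, NRC, the deposited value on a linear scale, of 1649490 and 1791550 in the neoSFs and 13429 to 15808 in the monoiPSCs), and all 6 pluripotency markers were higher, with 5 of them at no more than 3 counts in both neoSFs. Some markers of other cell types were also higher in monoiPSCs. The summed NRC of 3 melanocyte markers was 4599 to 15537 against 231 and 384 (1 of 2 tested higher, DCT). MITF was not called (log2 fold change -0.11 ± 0.30, adjusted p = 0.77), and TYR was near 0 in every library. The sum of 3 neural markers was 1229 to 3513 against 128 and 184 (1 of 1 tested higher, TUBB3). Endothelial markers summed to 64.7 to 130 in the monoiPSCs against 212 and 28.8 in the neoSFs. Blood markers summed to 6.29 to 11.9 against 8.78 and 8.45, and the keratinocyte marker found, TP63, was at 0 in the monoiPSCs. The part of such cells in the results below was not tested. In these bulk libraries, fewer cells of a type and less RNA per cell cannot be told apart.

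Each ribosome consists of a large and a small subunit built from ribosomal RNA and a set of mostly single-copy proteins. Cytosolic ribosomes translate almost all cellular mRNAs, and the mRNAs of their proteins share a pyrimidine tract at the 5′ end through which mTOR signaling controls their translation together. Mitochondrial ribosomes translate only the few mRNAs of the mitochondrial genome, which encode core subunits of the respiratory chain and of ATP synthase, and all of their proteins are encoded in the nucleus and imported. Cells that divide quickly are known for a high demand for new ribosomes.

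Ribosomal protein mRNAs took a larger share of the library in monoiPSCs. The 73 cytosolic genes together held 3.25% of the total count of the FD2M1 neoSF library and 3.55% of that of LSD1. Their share in monoiPSCs was 7.09% (FD2M1 P15), 7.33% (LSD1 P15), 7.85% (FD2M1 P25) and 8.56% (LSD1 P25). No monoiPSC library came near the neoSF range, and the ratio of the group means was 2.27. The 70 mitochondrial genes held 0.177% and 0.185% of the counts in the neoSFs and 0.339%, 0.349%, 0.364% and 0.351% in the monoiPSCs in the same order, again without overlap and with a ratio of 1.94.

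**Figure D1:**
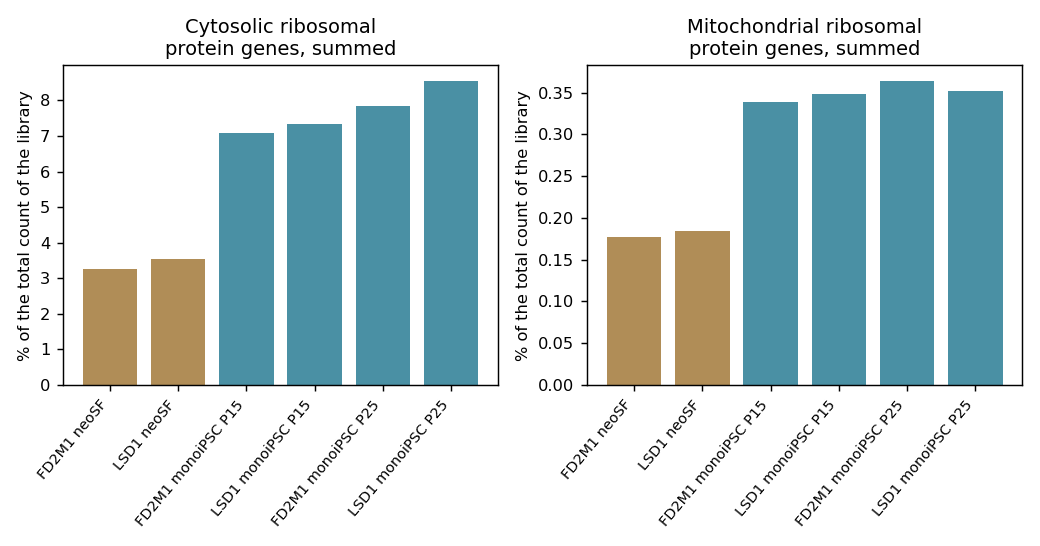
Share of the total count of each library, in percent, taken by the 73 cytosolic (left) and the 70 mitochondrial (right) ribosomal protein genes, 1 bar per library, neoSFs in brown and monoiPSCs in blue. The cytosolic share runs from 3.25% to 3.55% in neoSFs and from 7.09% to 8.56% in monoiPSCs, and the mitochondrial share from 0.177% to 0.185% and from 0.339% to 0.364%.

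These shares depend on what else fills a library. The 10 most abundant genes, none of them a ribosomal protein gene, took 14.2% and 14.6% of the neoSF counts and 3.81% to 4.34% of the monoiPSC counts. With those genes out of the denominator, the ratios were 2.02 and 1.73. Counts on cytosolic genes outnumbered those on mitochondrial genes 18.4 and 19.2 to 1 in the neoSFs and 20.9 to 24.4 to 1 in the monoiPSCs. Within the cytosolic ribosome the balance of the subunits did not shift by more than its spread: counts on large subunit genes were 1.70 ± 0.09 (SD, n = 2) times those on small subunit genes in neoSFs and 1.68 ± 0.04 (SD, n = 4) times in monoiPSCs.

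Which members stood behind this was asked gene by gene, after scaling the libraries by the trimmed mean of M-values (TMM), which centers the comparison on the bulk of the genes. A gene was called higher or lower in monoiPSCs when its p from edgeR's quasi-likelihood test, adjusted over 13072 genes by the Benjamini-Hochberg method, was no more than 0.05, and differentially expressed (DE) if it also changed at least 2-fold. All members but RPL3L were tested, 142 in all, and all 142 had an NRC of at least 20 in all 6 libraries, so the filter on low values removed none of them in 1 group alone.

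Most cytosolic ribosomal protein genes rose and almost none fell. Of the 72 tested, 56 (77.8%) were higher in monoiPSCs, against 32.8% of all genes tested, 1 (1.39%) was lower, against 29.4%, and 15 were not called. Their median log2 fold change was 0.83 with quartiles of 0.47 and 1.11, and the median of all genes was 0.08. The rise was moderate in size: 24 cytosolic genes (33.3%) were DE and higher, against 24.3% of all genes, and 1 was DE and lower, against 21.6%. The NRC of all 4 monoiPSC libraries lay above both neoSFs for 59 cytosolic genes (background 36.1%) and below both for 1 (background 37.1%).

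Mitochondrial ribosomal protein genes rose less uniformly. Of the 70 tested, 37 (52.9%) were higher in monoiPSCs, against 32.8% of all genes. Lower were 5 (7.14%), against 29.4%, and 28 were not called. The median log2 fold change was 0.59 with quartiles of 0.14 and 0.86. The 15 mitochondrial genes that were DE and higher make up 21.4%, below the 24.3% of all genes, and none was DE and lower. The monoiPSC libraries did not overlap with the neoSFs for 43 genes that were higher (background 36.1%) and 12 that were lower (background 37.1%).

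Both subunits took part in each compartment. Of all genes tested, 32.8% were called higher and 29.4% lower. In the cytosolic large subunit 35 of 44 tested genes (79.5%) were called higher and 1 (2.27%) lower with a median log2 fold change of 0.89. In the small subunit 21 of 28 (75%) were higher and none lower with a median of 0.75. In the mitochondrial large subunit 25 of 44 (56.8%) were higher and 4 (9.09%) lower (median 0.61). The mitochondrial small subunit group, assigned by symbol, was the most divided. It had 12 of 26 genes (46.2%) higher, the share nearest to that of all genes, and 1 (3.85%) lower. Its median was 0.49 and its interquartile range 1.22. That range lay between 0.57 and 0.65 in the other 3 groups. Differences between the groups of members were not tested, and a gene that was not called is not shown to be unchanged.

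**Figure D2:**
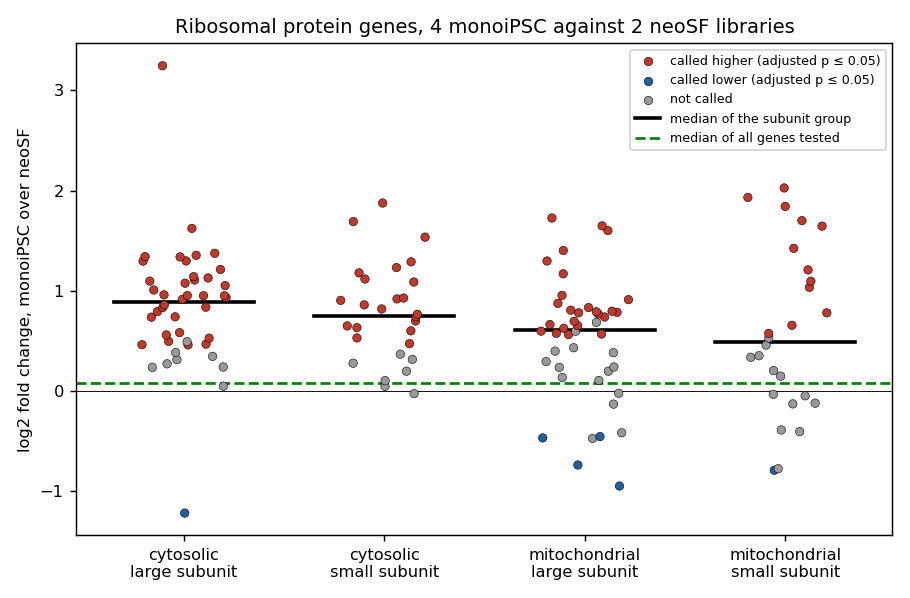
Log2 fold change of monoiPSCs (4 libraries) over neoSFs (2 libraries) for each of the 142 tested ribosomal protein genes by subunit, colored by its call at an adjusted p of at most 0.05, with the median of each group (black bars) and of all 13072 genes (dashed line). Group medians of 0.89, 0.75, 0.61 and 0.49 lie above the 0.08 of all genes, RPL21 stands apart at the top, and RPL39 is the only cytosolic gene called lower.

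How far these counts reach depends on the scaling. When each library was scaled by its total count in place of TMM, the median of all genes moved from 0.08 to 0.61 and called genes that were higher went from 52.7% to 71.7% of all called genes. The cytosolic median then moved to 1.36 with 71 genes higher (background 48.2%), and the mitochondrial median to 1.11 with 55 genes higher and 1 lower (background 19.0%), so that the higher share of called mitochondrial genes went from 88.1% to 98.2%. A scaling shifts all genes of a library alike, so the distance of the members' medians from that of all genes, 0.75 for the cytosolic and 0.50 for the mitochondrial genes, does not depend on it. Of the calls, 35 cytosolic and 23 mitochondrial genes were higher, and RPL39 and MRPL17 were lower, in all 13 alternative settings. The share of all genes that kept a call in every setting was not counted, so these numbers have no background beside them.

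In the large cytosolic subunit, the gene with the largest rise was RPL21 (gene 100019632, chromosome 4 in MonDom5). Its NRC was 1955 and 1988 in neoSFs (FD2M1, LSD1) and 17398, 14709, 18942 and 18944 in the monoiPSC libraries, which are given throughout in the order FD2M1 P15, LSD1 P15, FD2M1 P25 and LSD1 P25. The neoSFs were nearly equal and every monoiPSC library lay far above them, a log2 fold change of 3.25 ± 0.20 (SE; adjusted p = 2.51e-05) or 9.48-fold. RPL9 had an NRC of 7826 and 8645 in the neoSFs and 22138, 21207, 25722 and 25887 in the monoiPSCs, a clear separation with a log2 fold change of 1.62 ± 0.18 (adjusted p = 0.000257). RPL24, which sits at a contact between the subunits, had 6250 and 6136 against 14345, 13403, 15860 and 16472, with the passage 25 libraries highest and no overlap (log2 fold change 1.37 ± 0.17, adjusted p = 0.000376). RPL21, RPL9 and many other ribosomal protein genes of mammals have processed copies elsewhere in the genome. The authors kept reads by mapping quality and removed only the non-primary ones of multiply mapped reads, and the neoSF reads were shorter, so values of genes with close copies are uncertain, and the part of such copies in these differences was not tested.

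RPL39 (gene 100618247, chromosome X), a very small protein that lines the tunnel through which the new peptide leaves the ribosome, was the only cytosolic gene called lower. Its NRC was 69964 and 65624 in the neoSFs and 26656, 24848, 26080 and 31480 in the monoiPSCs. All 4 monoiPSC libraries lay at less than the lower neoSF library, and the log2 fold change was -1.22 ± 0.17 (adjusted p = 0.000684). RPL35, which lies at the exit of the same tunnel, was not called, with an NRC of 16552 and 16681 in the neoSFs and 15228, 12374, 16953 and 19767 in the monoiPSCs (log2 fold change 0.05 ± 0.21, adjusted p = 0.853). The LSD1 P25 library was the highest and LSD1 P15 the lowest of all 6 for this gene. RPL10 (gene 100011942, chromosome X), a protein added late in the maturation of the large subunit, had 20085 and 26210 in the neoSFs and 23580, 23689, 26773 and 28063 in the monoiPSCs, with the LSD1 neoSFs inside the monoiPSC range (log2 fold change 0.24 ± 0.19, adjusted p = 0.298). Under total-count scaling RPL35 and RPL10 were called higher (log2 fold changes of 0.57 and 0.75, adjusted p = 0.034 and 0.0077).

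RPLP0, the base of the stalk that recruits translation factors, rose with the majority. It had an NRC of 15920 and 18303 in the neoSFs and 27549, 30978, 30933 and 32734 in the monoiPSCs, without overlap (log2 fold change 0.93 ± 0.17, adjusted p = 0.00248).

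In the small cytosolic subunit, RPS13 (gene 100020317, chromosome 5) rose most. Its NRC was 4474 and 4243 in the neoSFs and 13209, 14597, 15176 and 16890 in the monoiPSCs, and all monoiPSC libraries were well above both neoSFs (log2 fold change 1.88 ± 0.17, adjusted p = 0.000119). RPS29, a small zinc-binding protein, had 4111 and 3945 against 12261, 9006, 12282 and 15130 (log2 fold change 1.69 ± 0.23, adjusted p = 0.000683). RPS28 had 2294 and 2243 against 5751, 3636, 7419 and 7814 (log2 fold change 1.53 ± 0.32, adjusted p = 0.0044). The groups did not overlap for either gene, but the LSD1 P15 library was clearly the lowest of the monoiPSCs for both.

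At the other end of the small subunit stood genes with a log2 fold change close to 0. RPS20 had an NRC of 17070 and 15858 in the neoSFs and 13446, 15027, 14891 and 17147 in the monoiPSCs, with fully mixed libraries and a log2 fold change of -0.03 ± 0.16 (adjusted p = 0.895). RPSA, which is also known as the laminin receptor, had 28143 and 30695 against 25769, 29831, 29580 and 33134, with FD2M1 P15 below both neoSFs and LSD1 P25 above them (log2 fold change 0.10 ± 0.17, adjusted p = 0.621). RPS27A, which is made as a fusion with ubiquitin, had 15347 and 20610 against 19598, 19596, 21629 and 22997 (log2 fold change 0.32 ± 0.19, adjusted p = 0.175), and the LSD1 neoSFs lay within the monoiPSC range. Total-count scaling gave RPSA, RPS20 and RPS27A log2 fold changes of 0.62, 0.50 and 0.83, all past the threshold, so their place near 0 holds only relative to the bulk of the genes.

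**Figure D3:**
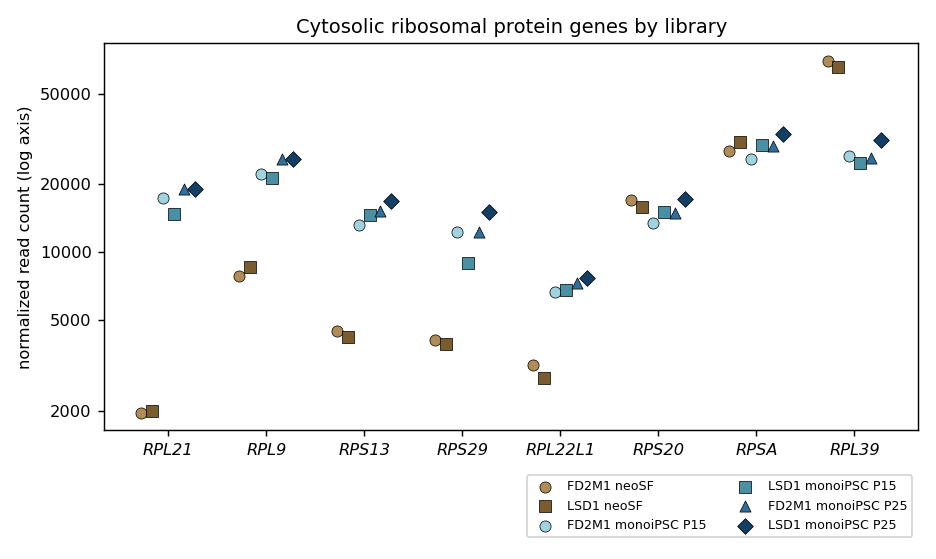
NRC on a log axis of 8 cytosolic ribosomal protein genes in each library, with 1 point per library, neoSFs in brown and monoiPSCs in blue. The monoiPSC points lie above both neoSF points for RPL21, RPL9, RPS13, RPS29 and RPL22L1, mix with them for RPS20 and RPSA, and lie below them for RPL39.

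Some cytosolic ribosomal proteins have a second gene that encodes a close paralog, and each paralog was set beside its partner. RPL22L1 had an NRC of 3163 and 2793 in the neoSFs and 6686, 6798, 7311 and 7695 in the monoiPSCs, which do not overlap (log2 fold change 1.35 ± 0.15, adjusted p = 0.000279). Its partner RPL22 had 7020 and 8350 against 12358, 10757, 12133 and 14598 (log2 fold change 0.79 ± 0.18, adjusted p = 0.00738). Counts on RPL22L1 were therefore 45.1% and 33.5% of those on RPL22 in the neoSFs and 52.7% to 63.2% in the monoiPSCs, higher in every monoiPSC library.

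RPS27L was lower relative to its partner. Its NRC was 2283 and 2433 in the neoSFs and 2049, 2033, 2530 and 2504 in the monoiPSCs, with mixed libraries (log2 fold change 0.05 ± 0.15, adjusted p = 0.809, and 0.57, adjusted p = 0.013, under total-count scaling), whereas RPS27 had 7216 and 7421 against 11748, 7554, 11770 and 13378 (log2 fold change 0.70 ± 0.24, adjusted p = 0.0374). Counts on RPS27L were 31.6% and 32.8% of those on RPS27 in the neoSFs and 17.4% to 26.9% in the monoiPSCs, without overlap. The call of RPS27 was lost in several alternatives, with an adjusted p of 0.0505 to 0.132 in them.

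RPL26L1 and RPL7L1 were both called higher, as were their partners. RPL26L1 had an NRC of 1110 and 1013 in the neoSFs and 1252, 1171, 1563 and 1484 in the monoiPSCs (log2 fold change 0.46 ± 0.17, adjusted p = 0.0462, lost in most alternatives), and RPL26 had 5816 and 6433 against 9163, 7893, 10288 and 10871 (log2 fold change 0.74 ± 0.18, adjusted p = 0.00951). RPL7L1, the relative of a yeast assembly factor of the large subunit, had 879 and 847 against 1781, 1384, 1514 and 1073 (log2 fold change 0.83 ± 0.22, adjusted p = 0.0127), and RPL7 had 11665 and 11999 against 20454, 23434, 23740 and 27098 (log2 fold change 1.10 ± 0.18, adjusted p = 0.00141). Counts on RPL26L1 were 19.1% and 15.7% of those on RPL26 in the neoSFs and 13.7% to 15.2% in the monoiPSCs, without overlap, and counts on RPL7L1 overlapped between the cell types, at 3.96% to 8.71% of those on RPL7 over all 6 libraries. RPL3L, the paralog of RPL3 known from heart and skeletal muscle, was close to the detection limit, with counts of 6 and 9.59 in the neoSFs and 0, 4, 0 and 0 in the monoiPSCs, and was not tested. Its partner RPL3 had 21996 and 22094 against 37775, 44267, 43351 and 48533 (log2 fold change 1.08 ± 0.18, adjusted p = 0.00162). The partners RPL10 and RPL39 are described above.

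In the large mitochondrial subunit, the 3 largest rises were in MRPL53, MRPL18 and MRPL19. MRPL53 (gene 100026077, chromosome 5) had an NRC of 244 and 265 in the neoSFs and 687, 793, 768 and 904 in the monoiPSCs (log2 fold change 1.73 ± 0.19, adjusted p = 0.00024). MRPL18 had 367 and 389 against 1056, 1051, 1291 and 1031 (log2 fold change 1.65 ± 0.17, adjusted p = 0.000203). MRPL19 had 497 and 467 against 1187, 1417, 1373 and 1499 (log2 fold change 1.60 ± 0.16, adjusted p = 0.000178). In each of these genes the neoSFs lay close together and every monoiPSC library was more than the higher neoSF library by a wide margin.

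MRPL17 (gene 100030990, chromosome 4) fell most, and was the only mitochondrial gene called lower in every alternative. Its NRC was 2772 and 2772 in the neoSFs and 1382, 1364, 1384 and 1245 in the monoiPSCs, with little spread inside either group (log2 fold change -0.95 ± 0.12, adjusted p = 0.000527). MRPL28 had 1130 and 906 against 521, 568, 568 and 625, again without overlap (log2 fold change -0.74 ± 0.16, adjusted p = 0.00537). MRPL30 had 353 and 547 against 266, 281, 350 and 319, where FD2M1 P25 nearly reached the FD2M1 neoSFs, and was not called (log2 fold change -0.47 ± 0.24, adjusted p = 0.126). MRPL10 and MRPL49 were also called lower, at -0.47 ± 0.15 and -0.46 ± 0.15, but kept the call in only 7 and 6 of the 13 alternatives. Both lost it without either neoSF library (adjusted p = 0.086 and 0.11 for MRPL10, 0.12 and 0.089 for MRPL49), and under total-count scaling both had a log2 fold change just above 0 (0.05 and 0.07).

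Members of the small mitochondrial subunit had the widest interquartile range, as given above. MRPS33 (gene 100024131, chromosome 8) had an NRC of 62.1 and 46.6 in the neoSFs and 223, 178, 225 and 199 in the monoiPSCs. All monoiPSC libraries were far above both neoSFs, and with 4.07-fold it was the largest rise of the mitochondrial genes (log2 fold change 2.03 ± 0.30, adjusted p = 0.000884). MRPS9, whose bacterial counterpart contacts the tRNA in the P site, had 342 and 466 against 1156, 1455, 1604 and 1561 (log2 fold change 1.93 ± 0.22, adjusted p = 0.00029). MRPS31 had 272 and 210 against 855, 793, 902 and 665 (log2 fold change 1.84 ± 0.22, adjusted p = 0.000331). Neither gene overlapped between the cell types.

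MRPS21 was the only small subunit gene called lower. It had an NRC of 4602 and 4822 in the neoSFs and 2675, 2436, 2710 and 2371 in the monoiPSCs, without overlap (log2 fold change -0.79 ± 0.13, adjusted p = 0.00158), and under total-count scaling it kept its direction but not its call, like MRPL28 (adjusted p = 0.11 and 0.27). MRPS6 had 1141 and 564 against 583, 405, 531 and 341 (log2 fold change -0.78 ± 0.32, adjusted p = 0.0704). Its level followed the strain in both cell types, with LSD1 below FD2M1 in neoSFs and at both passages, and with strain as a block the adjusted p was 0.012. The log2 fold change of MRPS6 rested on the neoSF library used, with -0.19 (adjusted p = 0.66) without the FD2M1 neoSFs and -1.19 (adjusted p = 0.017) without the LSD1 neoSFs. MRPS27, a pentatricopeptide repeat protein, had 777 and 620 against 546, 468, 561 and 397, all monoiPSCs below both neoSFs but not called (log2 fold change -0.41 ± 0.20, adjusted p = 0.121).

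**Figure D4:**
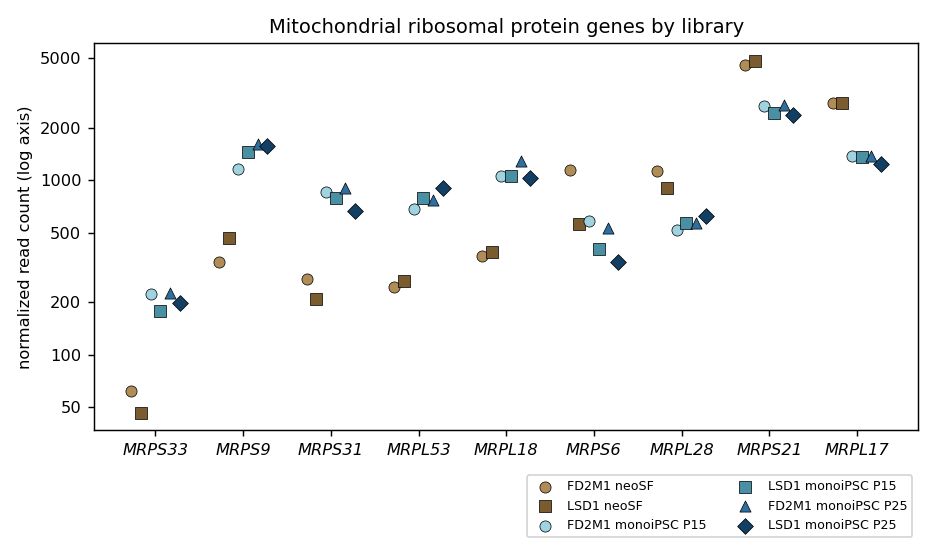
NRC on a log axis of 9 mitochondrial ribosomal protein genes in each library, with 1 point per library, neoSFs in brown and monoiPSCs in blue. The monoiPSC points lie above both neoSF points for MRPS33, MRPS9, MRPS31, MRPL53 and MRPL18 and below both for MRPL28, MRPS21 and MRPL17, and MRPS6 is lower in LSD1 than in FD2M1 within each cell type and passage.

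Each monoiPSC library was also set against the neoSFs of its own strain. Of the cytosolic genes, 62 were above and 1 was below in all 4 libraries, where 39.4% of all genes were above and 40.1% below. Of the mitochondrial genes, 46 were above and 13 below. The median own-strain log2 difference of the cytosolic genes was 0.69 in FD2M1 P15, 0.52 in LSD1 P15, 0.81 in FD2M1 P25 and 0.86 in LSD1 P25, and that of the mitochondrial genes was 0.44, 0.36, 0.58 and 0.46. For all genes these medians lay between -0.04 and -0.00. In the test of whether the change from neoSFs to monoiPSCs differed between the strains, no member was called (lowest adjusted p of any member 0.63), while 11 of 13072 genes (0.0841%) were, and no member had an unadjusted p under 0.05, against 9.13% of all genes. DESeq2 also called no member, among 304 genes. With 1 neoSF library per strain, this does not show that the strains changed alike. MRPL13 was above its own neoSFs in both FD2M1 libraries and below in both LSD1 libraries, and MRPL40 and MRPS2 the reverse, with interaction values of -0.41, 0.52 and 0.40 on the log2 scale (adjusted p = 0.80 to 0.83).

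Among the monoiPSC libraries most cytosolic genes had the same libraries at the top and bottom. LSD1 P25 was the highest of the 4 libraries for 66 of the 72 tested cytosolic genes (91.7%, against 31.1% of all genes), and LSD1 P15 was the lowest for 44 (61.1%, against 23.3%) and FD2M1 P15 for 27. Passage 25 was above passage 15 for 71 of 72 cytosolic genes, against 5939 of all 12252 genes. The median log2 difference was 0.23 for the cytosolic genes and -0.01 for all genes. The cytosolic exception was RPL7L1, at -0.32. For the mitochondrial genes 44 of 70 were above 0, with a median of 0.09. All genes were read in the same 2 libraries per passage, so the genes in these counts are not independent of each other.

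No member was called between the passages, and neither was any other gene (0 of 12252 by edgeR, 144 by DESeq2 with no member among them). At an unadjusted p under 0.05, 7 cytosolic genes (9.72%) and 1 mitochondrial gene (1.43%) differed, all higher at passage 25, against 9.35% of all genes in either direction and 4.92% in that direction, with 2 libraries per passage. Between the LSD1 and FD2M1 lines again no gene was called by edgeR (288 by DESeq2, no member). Here 1 cytosolic gene, RPL7L1, and 1 mitochondrial gene, MRPS6, had an unadjusted p under 0.05, against 14.2% of all genes. Markers of other cell types also differed between these libraries. The summed NRC of 3 skeletal muscle markers was 2193, 5003, 1335 and 10353 (333 to 1180 in the neoSFs). Against the neoSFs only MYOG of these was called higher, and MYOD1 and DES were not called (adjusted p = 0.19 and 0.29). The sum of 3 mesendoderm markers was 1186, 1584, 3804 and 3890 (48.2 and 48.9 in the neoSFs). FOXA2 made up most of this sum (1118, 1511, 3719 and 3820). MIXL1 was at 68.0, 72.9, 83.0 and 70.1, with SOX17 at or near 0 in every library. The part of such cells in the level of ribosomal protein mRNAs was not tested.

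A few cytosolic genes were low in LSD1 P15 alone, and they are named here after their values were seen. RPL38, a surface protein of the large subunit known for its part in the translation of Hox mRNAs in mouse embryos, had an NRC of 2338 and 2218 in the neoSFs and 4772, 2028, 4928 and 4848 in the monoiPSCs. LSD1 P15 lay below both neoSFs while the other monoiPSC libraries lay well above them. The log2 fold change of RPL38 was 0.96 ± 0.36 (adjusted p = 0.0496) with all libraries and 1.19 (adjusted p = 0.0013) without LSD1 P15, and the call was lost when any 1 of the other 5 libraries was left out (adjusted p = 0.094 to 0.16). RPS28, RPS27, RPL37A, RPL36 and RPS29 were also lowest in this library, at -0.85, -0.64, -0.55, -0.50 and -0.45 on the log2 scale from the median of the 4 monoiPSC libraries. LSD1 P15 stayed above both neoSFs for these 5 genes. Mitochondrial genes reached similar differences in this library, among them MRPL34 (-0.45), MRPL14 (-0.43) and MRPL46 (-0.42), and MRPL34 and MRPL14 lay below both neoSFs there.

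**Figure D5:**
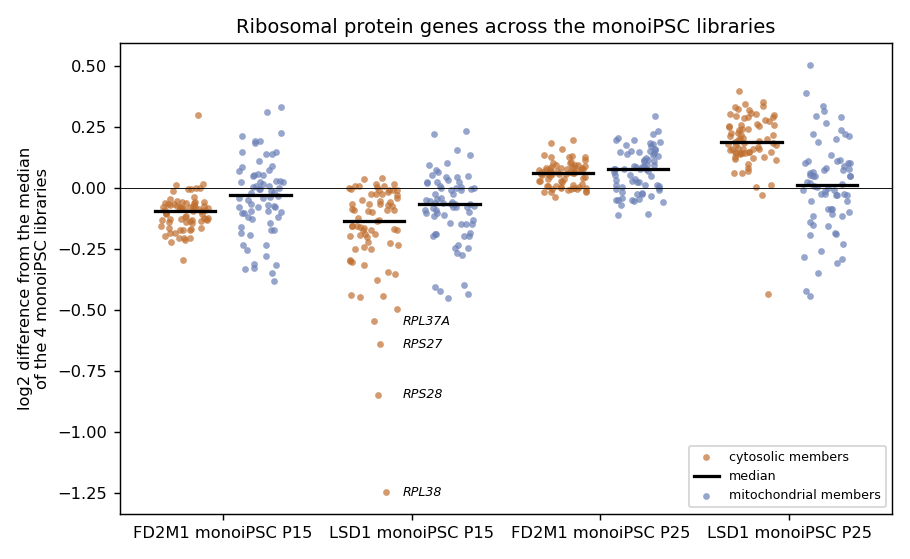
Log2 difference of each tested ribosomal protein gene in each monoiPSC library from the median of the 4 monoiPSC libraries, cytosolic genes in orange and mitochondrial genes in blue, with black bars for medians. Cytosolic medians run from -0.13 in LSD1 P15 and -0.10 in FD2M1 P15 to 0.06 in FD2M1 P25 and 0.19 in LSD1 P25, and RPL38, RPS28, RPS27 and RPL37A are the lowest points of LSD1 P15.

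Genes for proteins of the mitochondrial ribosome whose symbols fall outside the rule, listed with the assembly factor MALSU1, were mostly higher too. Of 10 such genes 8 (80%) were called higher, against 32.8% of all genes, and none lower, against 29.4%. Their median log2 fold change was 1.02. CHCHD1, a small subunit protein, had an NRC of 243 and 238 in the neoSFs and 1020, 893, 1074 and 1100 in the monoiPSCs (log2 fold change 2.19 ± 0.17, adjusted p = 6.42e-05), with no overlap. The others that were higher, as log2 fold changes, include MRPS18C (1.51 ± 0.23), MRPS18B (1.16 ± 0.24) and MRPS18A (0.90 ± 0.16). The peptidyl-tRNA hydrolase ICT1 (1.34 ± 0.19), also named MRPL58, and the pentatricopeptide repeat protein PTCD3 (1.13 ± 0.15) were among them. GADD45GIP1 (0.84 ± 0.16) and the assembly factor MALSU1 (0.82 ± 0.21) complete the list. The GTP-binding small subunit protein DAP3 had 1233 and 1169 in the neoSFs and 968, 825, 1019 and 970 in the monoiPSCs (log2 fold change -0.25 ± 0.15, adjusted p = 0.175), and AURKAIP1 had 1148 and 1453 against 1108, 1070, 1139 and 1342 (-0.06 ± 0.17, adjusted p = 0.757).

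Among cytosolic ribosomal proteins outside the rule, FAU (0.79 ± 0.19 on the log2 scale) and the scaffold protein RACK1 (0.59 ± 0.19) were higher. The gene named RPS4Y1 in the files (0.47 ± 0.32, adjusted p = 0.241) was not called.

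Other genes of the pathway, which build and serve the ribosomes, were taken from fixed lists. Of 11 genes of RNA polymerase I and its factors, 2 (18.2%) were higher, against 32.8% of all genes, and 2 lower, against 29.4% (median 0.35). POLR1C rose (1.09 ± 0.18 on the log2 scale), the initiation factor RRN3 (-0.78 ± 0.17) and POLR1D (-0.55 ± 0.15) fell, and POLR1B was at 0.95 ± 0.36 (adjusted p = 0.0531). Of 45 nucleolar genes for the modification and processing of ribosomal RNA, 13 (28.9%) were higher and 1 lower with a median of 0.33. NPM1, the abundant nucleolar chaperone, had an NRC of 17047 and 12486 in the neoSFs and 37321, 32519, 39426 and 31092 in the monoiPSCs, without overlap (log2 fold change 1.35 ± 0.21, adjusted p = 0.00125), and UTP11 was at 1.33 ± 0.15, while NAF1 (-0.66 ± 0.34, adjusted p = 0.134) and NOP10 (-0.54 ± 0.24, adjusted p = 0.0847) were the lowest and not called. Of 35 large subunit assembly genes, 11 (31.4%) were higher, among them RSL24D1 (1.33 ± 0.15) and NLE1 (1.27 ± 0.24), and 2 were lower, ZNHIT6 (-1.02 ± 0.32) and the helicase DDX55 (-1.15 ± 0.23).

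Among 40 cytosolic initiation and elongation factors, 18 (45.0%) were higher, against 32.8% of all genes, and 4 lower, against 29.4%, with a median of 0.44. The translocase EEF2 had an NRC of 2697 and 3439 in the neoSFs and 77909, 88828, 82995 and 84669 in the monoiPSCs. The groups were far apart (log2 fold change 4.86 ± 0.24, adjusted p = 1.36e-05). The neoSF reads were shorter, and the part of read length in the EEF2 difference was not tested. EEF1A2 was at no more than 3 counts in both neoSFs and at an NRC of 169, 138, 141 and 398 in the monoiPSCs. EIF5 (-1.16 ± 0.27), which activates GTP hydrolysis at the start codon, and the EEF2 kinase EEF2K (-0.94 ± 0.32) fell on the log2 scale. Of 18 chaperones and regulators of ribosomal proteins, 7 (38.9%) were higher, near the share of all genes, led by the S6 kinase family member RPS6KA1 (4.02 ± 0.29) and PDCD2L (3.05 ± 0.38), and 2 were lower, AAR2 (-0.61 ± 0.18) and MYC (-0.56 ± 0.18), whose human form was on the plasmids. Their median was 0.01.

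On the mitochondrial side, 7 of 11 translation factors (63.6%) were higher, against 32.8% of all genes, and none lower, against 29.4%, with a median of 0.79. The recycling factor MRRF (1.65 ± 0.19 on the log2 scale) and the mRNA-binding protein LRPPRC (1.38 ± 0.18) rose most, and the initiation factors MTIF2 (-0.26 ± 0.17, adjusted p = 0.22) and MTIF3 (-0.20 ± 0.24, adjusted p = 0.505) were not called. Of 24 assembly factors of the mitochondrial ribosome, 10 (41.7%) were higher and 3 lower (median 0.43). TFB1M (1.55 ± 0.27), which dimethylates the small ribosomal RNA, and C1QBP (1.30 ± 0.17) rose, and the ribosomal RNA methyltransferases MRM1 (-0.85 ± 0.24) and MRM2 (-0.79 ± 0.24) fell. Under total-count scaling none of the 10 pathway genes named as lower kept its call (log2 fold changes of -0.64 for EIF5 to -0.03 for POLR1D, adjusted p = 0.055 to 0.86).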

How the data were processed

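RNA-seq of poly-A selected mRNA was analysed in 2 neoSF and 4 monoiPSC libraries. The authors aligned reads to MonDom5 and RefSeq transcripts with StrandNGS, filtered them on read and mapping quality and multiple mapping, and deposited raw counts per gene and log2 values after DESeq normalization, with values below 1 normalized read set to 0. The deposited counts are estimated counts (87.1% of those above 0 were fractional) and were rounded here to whole numbers. The NRC is the linear form of the deposited log2 values. The gene identifiers carry the MonDom5 chromosome, and 139 members matched RefSeq genes of mMonDom1.pri by number. No column was left without a sample.

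Tests covered every gene that reached an NRC of 20 in each library of at least 1 cell type and were run with edgeR 4.0.16 (R 4.3.3) after TMM scaling, without a block. The NRC filter and the thresholds are those of the study, which used moderated t statistics, and edgeR was used because counts were deposited. The SE is that of the log2 fold change. Alternatives were DESeq2 1.42.0, limma 3.58.1 on the log2 values, RLE and total-count scaling, no filter, strain as a replicate block, summed passages and each library left out. Strain pairs the libraries because each line was made from neoSFs of its strain (correlation of strain deviations across genes 0.05). The scripts were tested on simulated data. Named genes are the 3 highest and 3 lowest log2 fold changes per subunit, paralogs and partners, RPLP0, RPSA, RPS27A, and the 2 highest and 2 lowest of each pathway list. A gene of these lists is not reported here. A rule on levels per coding length was not applied, because no transcript lengths were used here. Ratios between genes or groups of genes are ratios of counts, not corrected for length, and serve only to compare libraries. Members, lists and rules were chosen with earlier results of these data known. Intervals of depth cover counting error only.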

Additional observations from a re-analysis of the deposited data

Results flagged for a closer look

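In groups of 4 libraries, a library was looked at again when its gap to the next, divided by the range of the group, passed Dixon's critical value for 4 samples. Of the named values examined 2 passed, and chance passes about 1 in 20. MRPL17 was lower in LSD1 P25, at an NRC of 1245, than in the other 3 monoiPSC libraries, which lay between 1364 and 1384, and all 4 were below both neoSFs. MRPL18 was higher in FD2M1 P25, at an NRC of 1291, than in the other 3, which lay between 1031 and 1056, and all 4 were above both neoSFs. The log2 fold change of neither gene changed its direction or its call when that library was left out.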

How the results depend on the processing

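Of 442 values of named members under an alternative, 396 kept the direction and the side of the threshold of the reported value, 24 lost a call, 9 gained one and 13 changed sign. Of the 25 named members called, 7 lost the call in at least 1 alternative. Under total-count scaling, DE and higher genes numbered 53 (cytosolic), 40 (mitochondrial) and 4786 (all), no cytosolic gene was DE and lower, called lower genes numbered 1 (mitochondrial) and 2490 (all), and the medians were 1.36 (cytosolic), 1.11 (mitochondrial) and 0.61 (all). MRPL30 (0.044), MRPS27 (0.12) and RPS20 (0.50, adjusted p = 0.024) then changed sign on the log2 scale. The shift of all genes by the scaling accompanies these changes. Without the filter, 2 cytosolic genes were called lower and 2 were DE and lower, because RPL3L was then tested. With the passages summed per line, 3 mitochondrial genes were called lower, with fewer samples in the fit. With limma, the mitochondrial median was 0.48 and 1 mitochondrial gene was DE and lower; RPL35 (-0.068) and RPS27L (-0.056) changed sign, as did RPS27L with RLE scaling (-0.0018) and DESeq2 (-0.0019), and the cause was not tested. The median of all genes was 0.03 with RLE scaling and with DESeq2, -0.01 with limma and 0.23 without the filter. Outside the main comparison, DESeq2 called 144 genes between passages, 288 between lines and 304 for the strain interaction. The shares of counts changed to ratios of 2.02 and 1.73 without the 10 most abundant genes.

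With 1 monoiPSC library omitted at a time, 44 to 52 of the 56 cytosolic genes called higher kept that call. Of the 37 mitochondrial genes called higher, 33 to 36 kept it. Among all genes, those called higher then numbered 3807 to 4144, against 4291 with every library. Called lower mitochondrial genes numbered 3 to 5, with 3 without LSD1 P15 or without FD2M1 P25, where MRPL10 and MRPL49 were not called, as without either neoSF library. DE and lower mitochondrial genes numbered 0 to 1, with 1 without the LSD1 neoSFs. With 1 neoSF library left, that library is assumed to vary like the monoiPSCs. Over the omission of any 1 library, neoSF or monoiPSC, the log2 fold change of RPL35 ran from -0.082 to 0.15. That of RPS20 ran from -0.11 to 0.024 and that of RPS27L from -0.017 to 0.099. Without the FD2M1 neoSFs, RPL22, RPL26 and RPL7L1 lost their calls (adjusted p = 0.053, 0.06 and 0.053) and MRPL30 gained one (-0.76, adjusted p = 0.043, and -0.11 without the LSD1 neoSFs), and without the LSD1 neoSFs RPL7L1 lost its call (0.062) and MRPS6 gained one (0.017). With strain as a replicate block, 55 cytosolic genes were higher and 1 lower, and 38 mitochondrial genes were higher and 6 lower. Of all genes, 4411 were higher and 3905 lower in that fit. The call changed for 3 cytosolic and 2 mitochondrial genes, among the named members RPL26L1 (adjusted p = 0.051) and MRPS6 (0.012). Depth was lower in the neoSFs, and the lowest NRC of a tested member, that of MRPS33, was 46.6, above the filter of 20.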
